A study of Homo sapiens with 6 samples.

Results

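The nuclear-coded subunits of respiratory complex I were taken as every row of the count table whose symbol is NDUF, then A, B, C, S or V, then a number. This rule took 37 of 54261 rows and left out assembly factors, pseudogene rows and NDUFAB1. RNA was measured in 6 libraries of PC9/GR. This human cell line is labelled as lung cancer cells, and PC9, from which it takes its name, is widely used as a lung adenocarcinoma line with mutant EGFR. In 3 libraries the cells had been given si-MYLK-AS1, a small interfering RNA against the long non-coding RNA MYLK-AS1, and these were set against 3 libraries of cells given the control si-NC. Both groups are the PC9/GR line, and the labels give no other allele or agent, no dose and no time of harvest. The study as titled concerns glutamine metabolism and EGFR inhibitor resistance, and the comparison here asks how the mRNAs of complex I differed once MYLK-AS1 was lowered.

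Complex I, the NADH:ubiquinone oxidoreductase, takes electrons from NADH, passes them along flavin and iron-sulfur clusters to coenzyme Q, and pumps protons across the mitochondrial inner membrane. Its matrix arm carries the electron path and its membrane arm carries the pumps. The pumping core is coded by mitochondrial DNA, while the electron-carrying core and all accessory subunits are coded in the nucleus, translated in the cytosol and imported. NADH made by oxidation of glutamine carbon in the tricarboxylic acid cycle is among its substrates.

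Library totals ran from 7551303 reads (si-MYLK-AS1 replicate 3) to 11055408 reads (si-MYLK-AS1 replicate 1). A level is given below in CPM, read counts divided by the library total after TMM scaling, and a fold change as log2 of si-MYLK-AS1 over si-NC. A count of 3, the floor for a gene with 0 reads, stood for 0.274 to 0.410 CPM and covers counting error only. MYLK-AS1 had 0, 5 and 4 reads in the si-MYLK-AS1 libraries and 20, 16 and 19 in the si-NC libraries, and its log2 fold change was -2.43 (SE 0.60), at an adjusted p of 0.00326 by the edgeR quasi-likelihood test. A two-sided exact permutation test of its CPM gave p = 0.1, the smallest that 3 against 3 libraries allow. Of the 8 markers listed for epithelial lung cancer cells, KRT8 stood at 2623 CPM in si-MYLK-AS1 and 4160 CPM in si-NC. KRT18 stood at 2475 CPM in si-MYLK-AS1 and 4255 CPM in si-NC. CDH1 stood at 44.3 CPM in si-MYLK-AS1 and 96.7 CPM in si-NC, while KRT19 was the marker that rose (log2 fold change 0.37). NAPSA averaged 1.51 CPM in si-MYLK-AS1 and 1.49 CPM in si-NC and did not pass the test. NKX2-1 had at most 10 reads in any library and was not tested. EGFR, outside this list, had 17 to 38 reads in each library. SFTPB had no read in any library and EPCAM averaged 0.570 CPM in si-MYLK-AS1, with 14 to 16 reads in each si-NC library. The summed epithelial markers ran from 4953 to 5469 CPM in si-MYLK-AS1, against 8225 to 9209 CPM in si-NC, a change of -38.9%. Of 6 tested markers 4 were lower (66.7%) and 1 was higher (16.7%), against 20.7% and 21.3% of all tested genes. Among markers of leukocytes, endothelium and fibroblasts, PTPRC, CD3E and COL1A2 had no read in any library, and the summed level was 25.0 to 29.1 CPM in si-MYLK-AS1 and 20.7 to 27.9 CPM in si-NC, nearly all of it COL1A1. The part of these marker levels in the results below was not tested. Whether the repeats were separate cultures is not in the labels, and p-values therefore measure only the spread between these libraries, which may be technical.

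Complex I mRNAs changed little in size, and more of them fell than rose. Of the 36 subunits that passed the filter on low counts, 9 fell, 3 rose and 24 did not pass an adjusted p of 0.05 (edgeR quasi-likelihood test, adjusted over 15391 genes). Of all tested genes, 20.7% fell and 21.3% rose, so the 25.0% of subunits that fell was near that background and the 8.33% that rose was under it. The subunit that missed the filter, NDUFA10, had 2, 0 and 2 reads in si-MYLK-AS1 and 0, 3 and 3 reads in si-NC, where every other subunit had at least 104 reads in each library. Whether the counting set this low number was not tested. These libraries are bulk RNA, in which fewer cells of a type and less RNA per cell cannot be told apart.

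The groups did not overlap for 10 subunits that were lower and 3 that were higher in si-MYLK-AS1, where 26.1% of all tested genes did not overlap downward and 26.1% upward. The 10th of the lower ones was NDUFB11, which did not pass the test (log2 fold change -0.18, SE 0.09; adjusted p = 0.131). Over the 36 subunits the median log2 fold change was -0.14, against -0.0005 over all tested genes. Their median absolute log2 fold change was 0.170, against 0.379 over all tested genes and 0.329 over the 8005 tested genes whose si-NC mean lay in the subunits' range of 11.8 to 178 CPM. Within that range 49.5% of genes passed the test, while 33.3% of the subunits did. No subunit changed by 2-fold or more, a size reached by 12.3% of all tested genes, and 5 of 36 had an absolute log2 fold change above 0.5 (13.9%, against 38.9% of all tested genes). The plot of levels by library shows them by place in the complex.

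**Figure D1:**
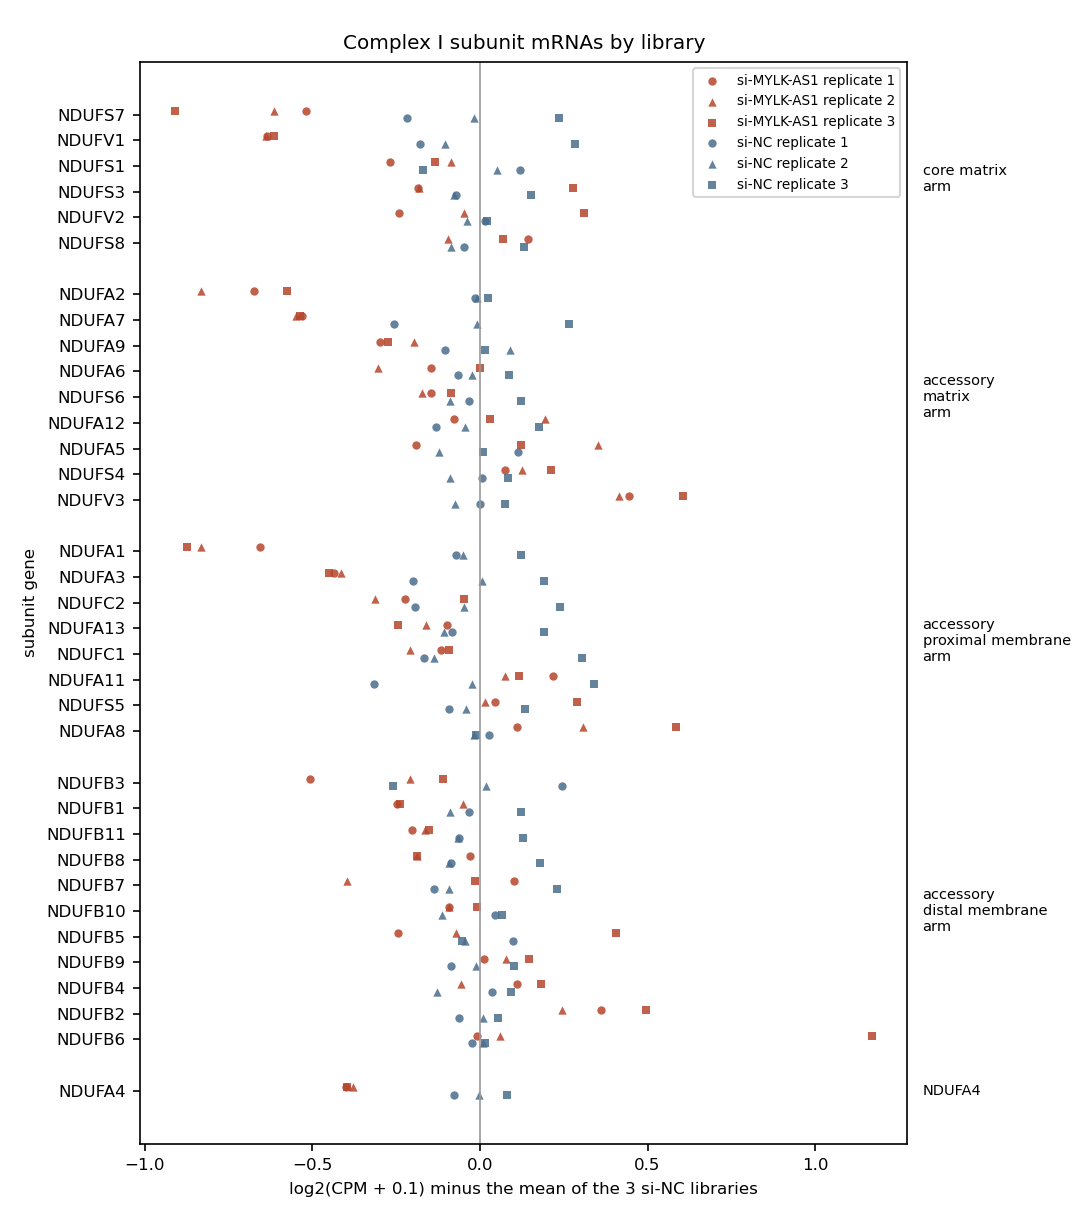
Level of the tested subunits described here in every library, as log2(CPM + 0.1) minus the mean of the 3 si-NC libraries, grouped by place in the complex; red symbols are si-MYLK-AS1 and blue symbols si-NC, with 1 symbol shape per replicate number. NDUFS7, NDUFV1, NDUFA2, NDUFA1 and NDUFA4 are among those whose red symbols all lie left of the blue ones, NDUFV3, NDUFB2 and NDUFA8 have all red symbols to the right, and the point farthest right is NDUFB6 in si-MYLK-AS1 replicate 3.

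The core of the matrix arm has 7 subunits that carry the cofactors or belong to the coenzyme Q module. Of these 3 fell (42.9%), NDUFS7 and NDUFV1 among them, and none rose, against 20.7% and 21.3% of all tested genes. No core subunit was higher at an unadjusted p under 0.05 or with DESeq2 or limma-voom. NDUFV1, which binds NADH and the flavin, stood at 104, 104 and 106 CPM in si-MYLK-AS1 replicates 1 to 3, against 143, 151 and 197 CPM in si-NC replicates 1 to 3. The si-MYLK-AS1 libraries were nearly level and all below si-NC, and si-NC replicate 3 was the highest. The log2 fold change of NDUFV1 was -0.64 (SE 0.11; adjusted p = 0.000181, edgeR). NDUFS7 holds the last iron-sulfur cluster before coenzyme Q. It had 27.8, 26.0 and 21.2 CPM in si-MYLK-AS1 and 34.3, 39.3 and 46.9 CPM in si-NC, without overlap (log2 fold change -0.68, SE 0.14; adjusted p = 0.00107, edgeR).

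NDUFS1, NDUFV2, NDUFS3 and NDUFS8 did not pass the test, and their groups overlapped. NDUFS1, the subunit with the most iron-sulfur clusters, had 120.2, 137 and 132 CPM in si-MYLK-AS1 and 157, 150.03 and 129 CPM in si-NC (log2 fold change -0.17, SE 0.10; adjusted p = 0.193, edgeR). Here si-NC replicate 3 was the lowest of its group, and without it NDUFS1 passed (log2 fold change -0.25). NDUFV2, which holds an iron-sulfur cluster beside the flavin, had 57.3, 65.6 and 84.1 CPM in si-MYLK-AS1 and 68.5, 66.0 and 68.8 CPM in si-NC. NDUFS3, a structural subunit of the coenzyme Q module, had 73.1, 73.3 and 101 CPM in si-MYLK-AS1 and 79.0, 78.6 and 92.3 CPM in si-NC. For both, si-MYLK-AS1 replicate 3 was the highest of all 6 libraries. NDUFS8, which holds a pair of iron-sulfur clusters, had 19.5, 16.6 and 18.6 CPM in si-MYLK-AS1 and 17.1, 16.7 and 19.4 CPM in si-NC. The log2 fold changes of NDUFV2, NDUFS3 and NDUFS8 were 0.02, -0.02 and 0.04, with an SE of 0.12, 0.12 and 0.15.

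Of the 9 accessory subunits of the matrix arm, 3 fell (NDUFA2, NDUFA7 and NDUFA9) and 1 rose (NDUFV3). The share that fell was 33.3%, against 20.7% of all tested genes. The share that rose was under the 21.3% of all tested genes. NDUFA2, a thioredoxin-like subunit beside the NADH module, had 70.0, 62.7 and 74.9 CPM in si-MYLK-AS1 and 111, 111 and 114 CPM in si-NC. Every si-MYLK-AS1 library lay well below every si-NC library, and the log2 fold change was -0.69 (SE 0.10; adjusted p = 2.64e-05, edgeR). NDUFA7, an accessory subunit near the coenzyme Q module, had 40.5, 39.9 and 40.3 CPM in si-MYLK-AS1 and 48.9, 58.2 and 70.3 CPM in si-NC. Its si-MYLK-AS1 libraries were nearly level while its si-NC libraries were widely spaced (log2 fold change -0.56, SE 0.13; adjusted p = 0.00210, edgeR). NDUFA9, at the junction of the arms, had 73.9, 79.2 and 75.1 CPM in si-MYLK-AS1 and 84.4, 96.6 and 91.8 CPM in si-NC. The groups of NDUFA9 lay narrowly apart (log2 fold change -0.26, SE 0.10; adjusted p = 0.0422, edgeR). That call was lost without filtering (adjusted p = 0.0842), with DESeq2 (0.0515), and when any library other than si-NC replicate 1 was left out.

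NDUFV3, a small subunit bound to the flavin module, rose. It had 48.9, 47.9 and 54.7 CPM in si-MYLK-AS1 and 35.9, 34.1 and 37.8 CPM in si-NC, with no overlap and a change of 40.3% (log2 fold change 0.49, SE 0.12; adjusted p = 0.00253, edgeR). NDUFV1, its partner in the flavin module, fell, as given above. The 5 accessory matrix-arm subunits that did not pass had log2 fold changes of -0.15 (NDUFA6), -0.14 (NDUFS6), 0.05 (NDUFA12), 0.11 (NDUFA5) and 0.13 (NDUFS4).

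In the proximal membrane arm, 8 of 9 accessory subunits were tested, of which 2 fell (NDUFA1 and NDUFA3) and 1 rose (NDUFA8). These are 25.0% and 12.5%, against 20.7% and 21.3% of all tested genes. NDUFA1, an X-linked subunit needed for assembly of the membrane arm, had 55.3, 49.0 and 47.6 CPM in si-MYLK-AS1 and 83.1, 84.3 and 95.01 CPM in si-NC. The groups lay far apart, and the log2 fold change of -0.79 was the largest in size among the 36 subunits (SE 0.11; adjusted p = 1.66e-05, edgeR), a change of -42.0%. NDUFA3, a small membrane subunit, had 41.6, 42.1 and 41.1 CPM in si-MYLK-AS1 and 48.9, 56.5 and 64.2 CPM in si-NC. As for NDUFA7, the si-MYLK-AS1 libraries were nearly level and si-NC replicate 3 was the highest (log2 fold change -0.44, SE 0.12; adjusted p = 0.00650, edgeR). NDUFA8 is a subunit on the intermembrane-space face held by disulfide bonds. It had 78.3, 89.7 and 109 CPM in si-MYLK-AS1 and 74.0, 71.7 and 71.9 CPM in si-NC. Its groups did not overlap, but si-MYLK-AS1 replicate 3 was far above the others (log2 fold change 0.34, SE 0.11; adjusted p = 0.0220, edgeR), and the call was lost without that library (log2 fold change 0.22, adjusted p = 0.113) and without si-NC replicate 2 (adjusted p = 0.0664). The 5 that did not pass ran from -0.21 (NDUFC2) to 0.12 (NDUFS5) on the log2 scale.

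In the distal membrane arm, 1 of 11 NDUFB subunits rose (9.09%, against 21.3% of all tested genes) and none fell (against 20.7%). None was lower at an unadjusted p under 0.05 either, nor with DESeq2 or limma-voom, but NDUFB3 passed as lower without si-NC replicate 3 (log2 fold change -0.41, adjusted p = 0.0307, edgeR). NDUFB2, a small subunit at the tip of this arm, had 87.8, 81.0 and 96.2 CPM in si-MYLK-AS1 and 65.4, 68.7 and 70.9 CPM in si-NC. All 3 si-MYLK-AS1 libraries lay above every si-NC library (log2 fold change 0.37, SE 0.10; adjusted p = 0.00737, edgeR). NDUFB6 had as high a log2 fold change as NDUFV3, 0.49, but an SE of 0.27 and an adjusted p of 0.172 (edgeR). Its levels were 11.7, 12.3 and 26.6 CPM in si-MYLK-AS1 and 11.6, 11.9 and 11.9 CPM in si-NC, so that a single library, si-MYLK-AS1 replicate 3, stood apart. The remaining 9 ran from -0.28 (NDUFB3) to 0.08 (NDUFB4 and NDUFB9).

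NDUFA4, found with complex I in early preparations and later assigned to cytochrome c oxidase (complex IV), fell. It had 135, 137 and 135 CPM in si-MYLK-AS1 and 169, 178 and 188 CPM in si-NC, with the si-MYLK-AS1 libraries again nearly level (log2 fold change -0.39, SE 0.09; adjusted p = 0.00167, edgeR). NDUFAB1, the mitochondrial acyl carrier protein that is also a complex I subunit but lies outside the rule, fell as well (log2 fold change -0.51, SE 0.11; adjusted p = 0.00145, edgeR).

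**Figure D2:**
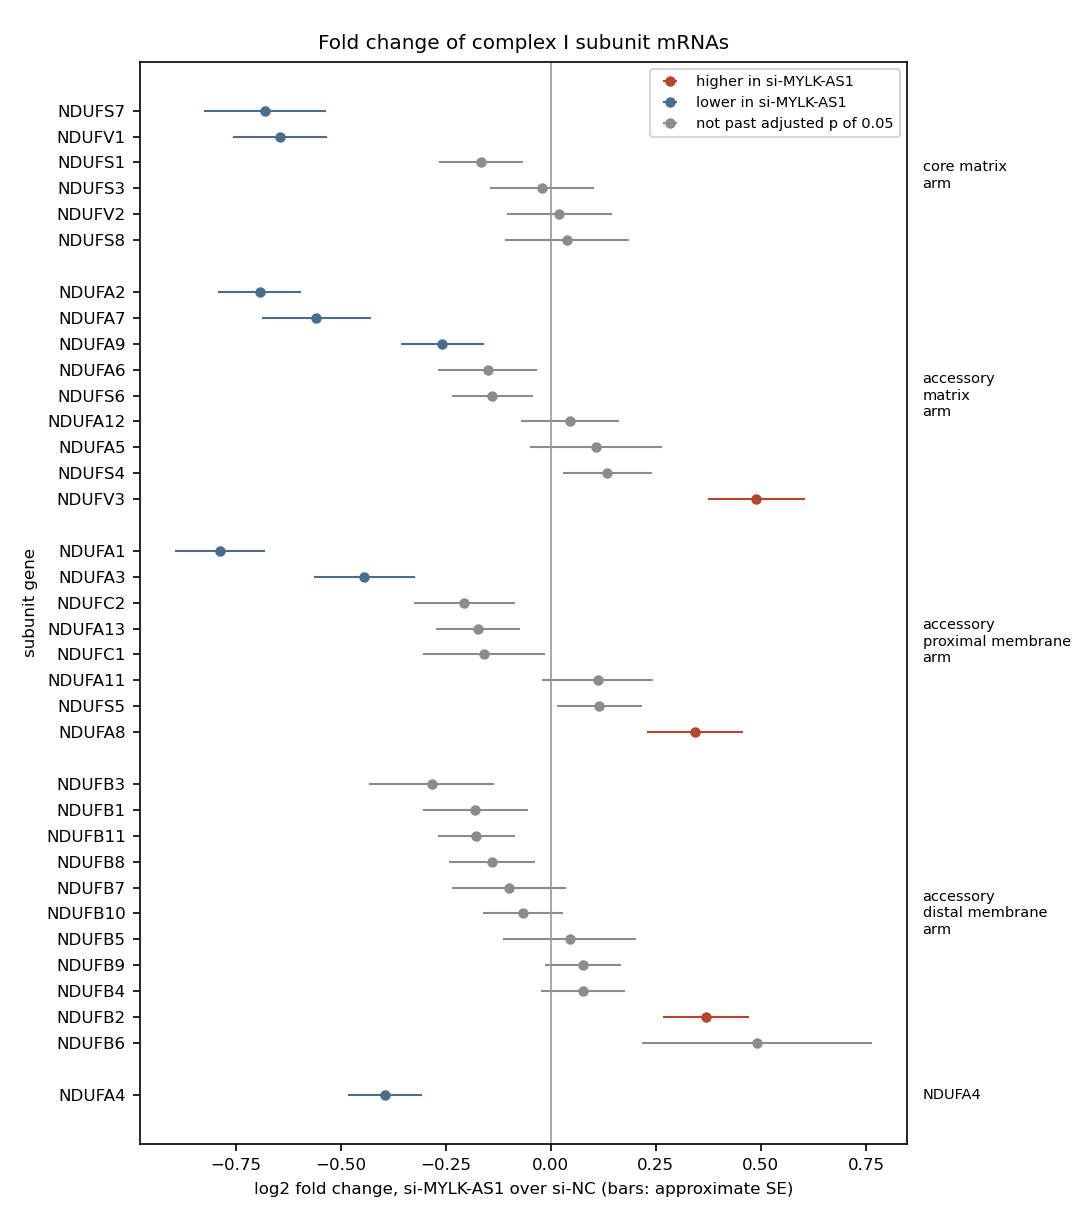
Log2 fold change, si-MYLK-AS1 over si-NC, of the tested subunits described here, by place in the complex; bars are the approximate SE and colours mark the call at an adjusted p of 0.05. Values run from -0.79 (NDUFA1) to 0.49 (NDUFB6 and NDUFV3), and the distal membrane arm holds no subunit coloured as lower.

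Summed over all 37 rows, subunit mRNA was 2772 ± 109 CPM in si-MYLK-AS1 and 3047 ± 202 CPM in si-NC (SD, n = 3 each), a change of -9.02%. The core of the matrix arm was at 553, 575 and 603 CPM in si-MYLK-AS1, against 672, 680 and 727 CPM in si-NC, without overlap and a change of -16.7%. Its accessory subunits were at 497, 509 and 532 CPM in si-MYLK-AS1 and 553, 567 and 617 CPM in si-NC, again without overlap and a change of -11.5%. In the membrane arm the sums overlapped, with changes of -6.12% in the proximal part and -0.834% in the distal part. Both of these turned positive (0.203% and 2.74%) when si-NC replicate 3 was left out, and the change of the total was then -5.42%. The difference between the arms was not tested. Abundant subunits weigh most in such sums. In the core of the matrix arm, NDUFV1 averaged 105 CPM in si-MYLK-AS1 and 164 CPM in si-NC. NDUFV2, NDUFS3 and NDUFS8 of the same core had log2 fold changes of 0.02, -0.02 and 0.04.

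**Figure D3:**
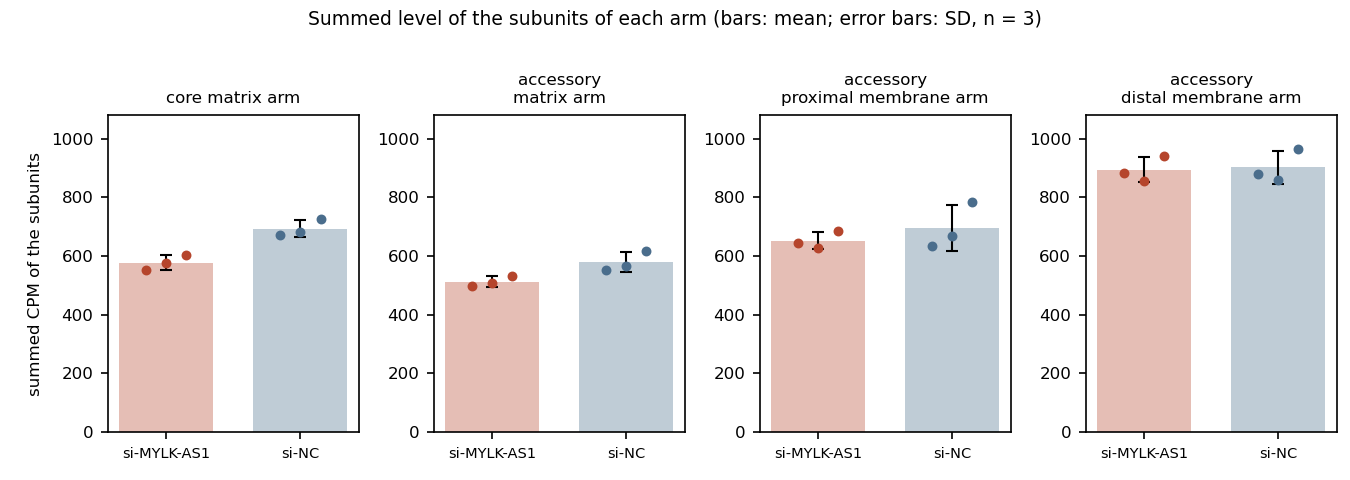
Summed CPM of the subunits of each arm in si-MYLK-AS1 and si-NC; points are libraries, bars the mean and error bars the SD (n = 3). The core matrix-arm sums lie at 553 to 603 CPM in si-MYLK-AS1, below 672 to 727 CPM in si-NC, while the distal membrane-arm sums overlap.

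Libraries within a group differed by an amount that bears on these values. Of the 36 tested subunits, 29 were highest of the si-NC group in si-NC replicate 3 and 20 were highest of the si-MYLK-AS1 group in si-MYLK-AS1 replicate 3. The median subunit lay at -0.17, -0.16 and -0.03 in si-MYLK-AS1 replicates 1 to 3 and at -0.06, -0.04 and 0.11 in si-NC replicates 1 to 3, as log2(CPM + 0.1) relative to the si-NC mean. Without si-NC replicate 3 the subunits' median log2 fold change was -0.040. Of the subunits that changed, 9 (NDUFA1, NDUFA2, NDUFA3, NDUFA4, NDUFA7, NDUFS7, NDUFV1, NDUFB2 and NDUFV3) passed the test whichever library was left out.

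Per kilobase of the median annotated transcript, NDUFS5, a subunit of the intermembrane-space face, was the most abundant in both groups, at 290 ± 31.2 CPM per kb in si-MYLK-AS1 and 267 ± 22.7 CPM per kb in si-NC (SD, n = 3 each). NDUFB9 followed at 234 ± 10.8 in si-MYLK-AS1 and 222 ± 14.7 CPM per kb in si-NC. NDUFV3 and NDUFA5 were the lowest of the tested subunits, at 16.2 ± 1.2 and 12.7 ± 2.4 CPM per kb in si-MYLK-AS1 and 11.5 ± 0.6 and 11.7 ± 1.0 in si-NC, and in si-NC they did not differ beyond their spread. Among the 37, NDUFA2 was ranked 16 in si-MYLK-AS1 and 6 in si-NC on this scale. NDUFA1 was ranked 23 in si-MYLK-AS1 and 15 in si-NC, and NDUFB2 was ranked 4 in si-MYLK-AS1 and 12 in si-NC. These levels rest on annotated lengths, since the transcript ends used in these cells were not measured.

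Positions are from GENCODE release 29 on GRCh38, and no source used here says whether the counting used strand, so reads shared with a neighbour cannot be told apart. NDUFA1 (ENSG00000125356.6) lies on chromosome X from 119871487 to 119876662 on the plus strand, and 44.5% of its exon bases are also exons of RNF113A on the opposite strand. RNF113A rose (log2 fold change 0.48, SE 0.13; adjusted p = 0.00776, edgeR), opposite in direction to NDUFA1. NDUFS7 (ENSG00000115286.19; chromosome 19, 1383527 to 1395589, plus) shares 35.7% and 13.4% of its exon bases with a pair of antisense genes. NDUFA7 (ENSG00000267855.5; chromosome 19, 8308768 to 8321396, minus) shares 32.3% with a gene on its own strand, and NDUFB2 (ENSG00000090266.12; chromosome 7, 140690777 to 140722790, plus) shares 27.9% with BRAF on the opposite strand. BRAF did not pass the test (0.04, SE 0.17; adjusted p = 0.865, edgeR). NDUFV1 (ENSG00000167792.12; chromosome 11, 67605653 to 67612554, plus), NDUFA2 (ENSG00000131495.8; chromosome 5, 140638740 to 140647785, minus) and NDUFA3 (ENSG00000170906.15; chromosome 19, 54102728 to 54109257, plus) also fell. On the opposite strand, NDUFA2 shares 8.33% of its exon bases with TMCO6 and 4.70% with IK. TMCO6 had at most 3 reads and IK at most 1 in any library, and whether the counting set these low numbers was not tested. NDUFA3 shares 6.34% with TFPT and NDUFA7 6.30% with RPS28, also on the opposite strand. TFPT rose (log2 fold change 0.82, SE 0.23; adjusted p = 0.00720, edgeR). RPS28 rose as well (0.70, SE 0.23; adjusted p = 0.0202, edgeR), though its groups overlapped. NDUFA9 (ENSG00000139180.10; chromosome 12, 4649095 to 4694317, plus) shares 10.6% of its exon bases and NDUFV1 12.0% with other annotated genes. No exon base was shared for NDUFA4 (ENSG00000189043.9; chromosome 7, 10931951 to 10940256, minus), NDUFA8 (ENSG00000119421.6; chromosome 9, 122144058 to 122159819, minus) or NDUFV3 (ENSG00000160194.17; chromosome 21, 42879644 to 42913304, plus).

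Promoter sequences were at hand for 31 of the 37 genes (RefSeq, GRCh38.p14, 250 bases before to 50 after the start). They were searched on both strands for GCATGCGC, CCGGAAGT and AAGATGGC, short words within the known motifs of NRF1, ETS factors such as GABP, and YY1, regulators of nuclear genes for mitochondrial proteins. AAGATGGC was in 7 of 31 subunit promoters (22.6%), against 6.43% of 9705 tested genes with a promoter in the table. GCATGCGC was in 6 of 31 (19.4%, against 6.29%) and CCGGAAGT in 2 of 31 (6.45%, against 9.88%). Of the 7 lower subunits with a promoter, 4 held AAGATGGC, and of the 3 higher ones 0 did. Among those that did not pass it was in 3 of 20. These 4 stretches are shown because they belong to subunits that fell, with the word in capitals.
NDUFA3, chr19:54102865-54102894, plus strand: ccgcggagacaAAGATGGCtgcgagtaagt
NDUFA7, chr19:8321343-8321372, minus strand: atcgcggacggAAGATGGCgtccgccaccc
NDUFA9, chr12:4649113-4649142, plus strand: gattgtgggaaAAGATGGCggctgccgcac
NDUFS7, chr19:1383913-1383942, plus strand: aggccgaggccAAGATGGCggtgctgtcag
These 3 hold the same word and did not pass the test.
NDUFA6, chr22:42090729-42090758, minus strand: gatgctttggcAAGATGGCggggagcggcg
NDUFB8, chr10:100529836-100529865, minus strand: tgaagaaggtgAAGATGGCggtggccaggg
NDUFS4, chr5:53560649-53560678, plus strand: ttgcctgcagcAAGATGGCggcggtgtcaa
In all 7, the ATG inside the word is the annotated start codon of the gene, and the word begins 11 to 26 bases into the transcript, so part of the word is coding sequence. Over all tested genes with a promoter, 17.9% of those with AAGATGGC fell and 22.9% rose, against 20.6% and 24.4% of those without it. The match is a description of letters, and binding was not measured.

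The genes around complex I moved in both directions, on lists chosen with earlier results of these data known. Of 18 tested assembly factors, 5 fell and 2 rose (median log2 fold change -0.08). Those that fell made up 27.8%, against 20.7% of all tested genes. Those that rose made up a smaller share than the 21.3% of all tested genes. NDUFAF4, which acts early in assembly, rose to 14.1, 18.8 and 24.4 CPM in si-MYLK-AS1, against 9.90, 10.2 and 12.0 CPM in si-NC (log2 fold change 0.82, SE 0.19; adjusted p = 0.00247, edgeR). FOXRED1, an oxidoreductase-like assembly factor, ECSIT, a part of the assembly complex of the membrane arm, and DMAC1, a factor for the distal membrane arm, fell (-0.47, -0.48 and -0.39). NDUFAF3 and NDUFAF6 had at most 2 reads in any library and were not tested.

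The 7 mitochondrially coded ND mRNAs, which code for the membrane core of complex I, did not move together. Of these 2 rose and 2 fell (28.6% each, against 21.3% and 20.7% of all tested genes). Their groups did not overlap for 4 that were lower and 2 that were higher. Of all tested genes 26.1% did not overlap downward and 26.1% upward. The median log2 fold change of the 7 was -0.63. ND1 rose to 3230, 2880 and 2679 CPM in si-MYLK-AS1, against 1514, 1545 and 1492 CPM in si-NC (log2 fold change 0.95, SE 0.09), while ND4 fell to 5055, 4887 and 4113 CPM in si-MYLK-AS1, against 8012, 7851 and 7287 CPM in si-NC (-0.72, SE 0.10). The groups of each lay far apart. ND3 rose by 0.23 and ND6, which lies on the other strand and whose count is uncertain without knowledge of strand, fell by 2.23 on the log2 scale. The summed ND mRNAs were at 14051, 13220 and 10382 CPM in si-MYLK-AS1 and 16599, 16543 and 14211 CPM in si-NC, a change of -20.5%. In both groups replicate 3, in which most nuclear-coded subunits were highest, was the lowest.

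Iron-sulfur cluster assembly, which supplies the matrix arm, had 4 of 13 tested genes higher (30.8%) and 3 lower (23.1%). The shares of all tested genes were 21.3% and 20.7%. The ferredoxin reductase FDXR fell (-1.50, SE 0.10) and the late-acting carrier ISCA1 rose (1.32, SE 0.14), as did the chaperone HSPA9 (0.53), while the scaffold ISCU fell (-0.35). For coenzyme Q synthesis 5 of 10 fell (50%) and 1 rose (10%). The hydroxylase COQ6 (-0.60), COQ8B (-0.51) and PDSS2 (-0.76) fell, and PDSS1, the partner of PDSS2 in making the isoprenoid tail, rose (1.44). Among 12 genes of the other routes of electrons into coenzyme Q, 2 fell and 2 rose (16.7% each), under the shares of all tested genes. The complex II subunits SDHA (-0.83) and SDHB (-0.25) fell. GPD2 (0.56) of the glycerol phosphate shuttle and DHODH (0.46) of pyrimidine synthesis rose.

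Of 11 tested regulators of mitochondrial genes, 5 rose (45.5%) and none fell, with a median log2 fold change of 0.38. Of all tested genes 21.3% rose and 20.7% fell. No regulator was lower at an unadjusted p under 0.05 or with DESeq2 or limma-voom. GABPB1, a subunit of the ETS factor GABP, rose to 34.2, 42.0 and 47.5 CPM in si-MYLK-AS1, against 14.9, 14.8 and 13.3 CPM in si-NC (1.52, SE 0.15). Its partner GABPA was at 1.82 CPM in si-MYLK-AS1 and 1.37 CPM in si-NC and did not pass (adjusted p = 0.427, edgeR). TFAM, which packs and transcribes mitochondrial DNA (0.72), the elongation factor TEFM (0.67) and the coactivator PPRC1 (0.45) rose. NRF1 had a log2 fold change of -0.20 (adjusted p = 0.279, edgeR) and YY1 of 0.24 (adjusted p = 0.0988, edgeR).

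Downstream of coenzyme Q, 4 of 9 nuclear genes of complex III fell (44.4%) and none rose. None of these 9 was higher at an unadjusted p under 0.05 or with DESeq2 or limma-voom. In complex IV 5 of 10 fell (50%) and 1 rose (10%), and for ATP synthase 5 of 16 fell (31.25%) and 2 rose (12.5%). Over all tested genes the shares were 20.7% lower and 21.3% higher. The lists' medians were -0.16, -0.38 and -0.15, beside -0.14 for the complex I subunits. UQCRC2 (-0.72), CYC1 (-0.64), COX6B1 (-0.71) and ATP5MC1 (-0.85) were among those that fell, sizes close to those of NDUFA1, NDUFA2, NDUFS7 and NDUFV1. The bar plot of lists sets these shares side by side.

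**Figure D4:**
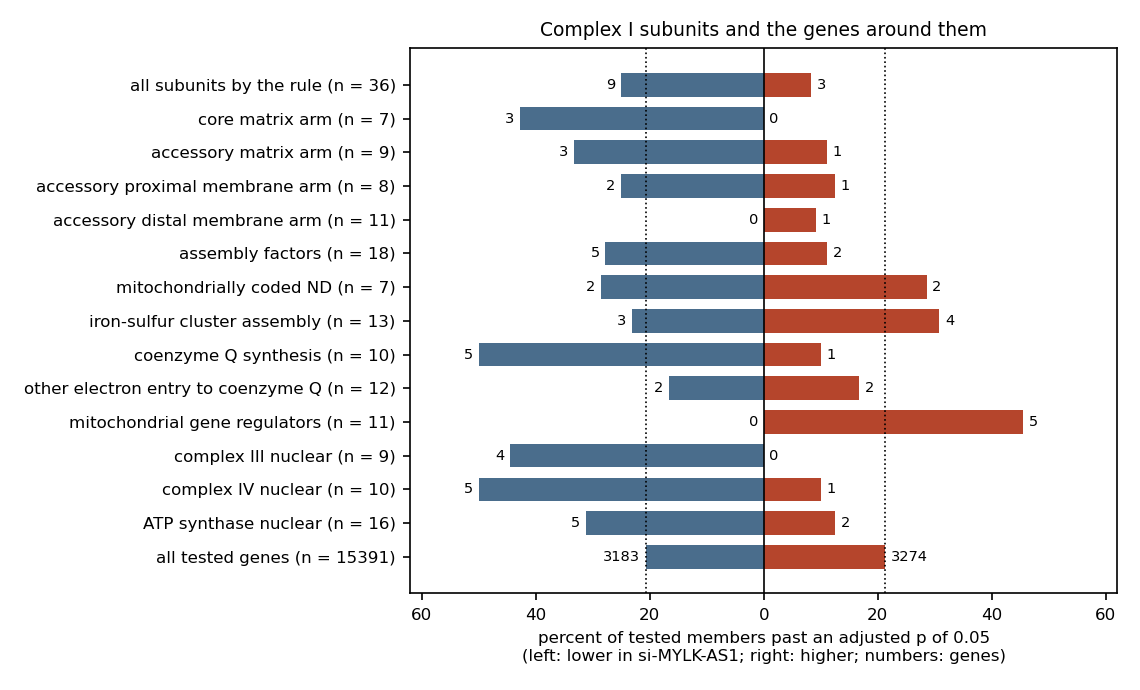
Percent of the tested members of each list past an adjusted p of 0.05, lower in si-MYLK-AS1 to the left and higher to the right, with the number of genes at each bar; dotted lines mark the 20.7% lower and 21.3% higher of all tested genes. The 36 subunits have 9 lower and 3 higher, and the mitochondrial gene regulators have 0 lower and 5 higher.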

How the data were processed

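The 6 RNA libraries, 3 per group, were made with an Ion Proton RNA-Seq kit from Trizol-extracted RNA, per the labels' protocols. The values the authors deposited are raw counts by gene symbol, on GRCh38 per the submitters' processing notes. No source used here gives the aligner, counter, annotation or strand setting. Of its 54261 rows, 25004 had no read.

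Counts were tested with edgeR 4.0.16 in R 4.3.3 (filterByExpr, TMM, robust quasi-likelihood fit, two-sided F test), with Benjamini-Hochberg adjustment over 15391 genes and a threshold of 0.05. The SE is the log2 fold change over the square root of F. The common biological coefficient of variation was 11.8%. Library pairs within a group correlated at 0.975 to 0.989 (log2 CPM), and none differed by as little as sampling noise (chi-square per degree of freedom 2.25 or more).

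The members and lists were chosen with earlier results of these data known. Text names MYLK-AS1 and the subunits by value or range, and from each other list up to 4 members with the lowest p. RNF113A, BRAF, TMCO6, IK, TFPT, RPS28, EGFR, GABPA, NRF1, YY1, NDUFAF3 and NDUFAF6 were named after their values were seen. So were EPCAM, SFTPB, NAPSA, NKX2-1, PTPRC, CD3E, COL1A1, COL1A2, the pseudogene rows and NDUFB11. Some genes under this rule stay in the counts, sums and medians and are not reported here by name. All 166 list symbols matched, 30 through another symbol. Alternatives were RLE, upper quartile or no factors, no filter, at least 5 CPM in 3 libraries, DESeq2 1.42.0, limma-voom (limma 3.58.1), the repeat number as a block, an adjusted p of 0.01, leaving out each library and, chosen after seeing the data, leaving out both replicates numbered 3.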

Additional observations from a re-analysis of the deposited data

How the results depend on the processing

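Over all 16 alternatives, the subunits that rose numbered 2 to 4 and those that fell 7 to 11. Leaving out each library gave 2 to 4 higher and 7 to 10 lower, with 2646 to 3176 and 2527 to 2971 for all tested genes, a log2 fold change of -2.95 to -1.74 for MYLK-AS1, and a subunit median of -0.160 to -0.040, the last without si-NC replicate 3. An adjusted p of 0.01 left 2 higher and 7 lower. MYLK-AS1 could not be fitted with the filter of 5 CPM. The labels tie the replicates of the groups by number alone. Deviations of same-numbered libraries correlated at -0.0492, 0.0595 and 0.0469. With 3 libraries per group this cannot settle whether same-numbered libraries shared a batch. With the replicate number as a block, 3 subunits rose and 9 fell, 3321 and 3200 of all genes did, the subunit median was -0.14 and MYLK-AS1 stood at -2.43.

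Signs turned for some subunits that did not pass. NDUFV2 was -0.0085 with upper quartile factors, -0.011 without factors, -0.014 with the 5 CPM filter, -0.0082 with limma-voom and -0.13 without both replicates numbered 3, where NDUFB5 was -0.18. Leaving out each library, ranges were -0.18 to 0.064 for NDUFS3, -0.013 to 0.11 for NDUFS8, -0.028 to 0.14 for NDUFA12, -0.033 to 0.25 for NDUFA5, -0.20 to 0.038 for NDUFB7, -0.15 to 0.18 for NDUFB5, -0.14 to 0.15 for NDUFV2, -0.034 to 0.30 for NDUFA11 and -0.24 to 0.010 for NDUFC1. NDUFB6 passed without filtering and without si-MYLK-AS1 replicate 1. Without si-NC replicate 3, and also without both replicates numbered 3, NDUFA11 passed as higher and NDUFB3 as lower (-0.41 and -0.49). The cause was not tested. No subunit that passed changed sign under any of them, and NDUFA8 also lost its call without both replicates numbered 3 (adjusted p = 0.0699). NDUFA10, with 4 reads in si-MYLK-AS1 and 6 in si-NC, allows no comparison.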

Other observations

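The table holds 59 rows named as a subunit followed by P and a number, annotated pseudogene copies of 18 subunits, of which 25 had no read and 11 were tested. Reads of a subunit and of such a copy cannot be fully told apart. NDUFV2P1 had 2878 reads in all, 73.4% of the number on NDUFV2, and NDUFA4P1 had 2525, 27.5% of that on NDUFA4. NDUFA4P1 fell (log2 fold change -0.54, SE 0.13; adjusted p = 0.00341, edgeR), as NDUFA4 did. NDUFV2P1 had -0.24 (adjusted p = 0.111, edgeR) beside 0.02 for NDUFV2. NDUFS5P7, with 4.20% of the reads of NDUFS5, fell (-1.02; adjusted p = 0.00181, edgeR), while NDUFS5 did not pass. NDUFB4P11 had 2, 0 and 0 reads in si-MYLK-AS1 and 10, 15 and 14 in si-NC (adjusted p = 0.000441, edgeR), and NDUFB4 did not pass.

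AGCTTA is a word that earlier work on these data had raised, so its counts here are a description and no independent evidence. It was in the longest annotated 3' UTR (GENCODE 29) of 9 of the 36 tested subunits (25.0%), against 27.4% of 11497 tested genes with a 3' UTR of at least 50 bases. Subunit 3' UTRs had a median length of 555 bases, against 1333 bases for those genes. Of the 9 subunits that hold it, NDUFA2 fell and none rose, and of the 27 that lack it 8 fell and 3 rose. Over those 11497 genes, 24.1% of the ones with the word fell and 22.6% rose. Of the ones without it 18.5% fell and 26.0% rose. NDUFA2 is shown because it is the sole subunit with both the word and a call, the word in capitals.
NDUFA2, chr5:140645394-140645415, minus strand: ggcaaagtAGCTTAatataaaa
The others with the word were NDUFA5, NDUFB5, NDUFB6, NDUFB9, NDUFC2, NDUFS1, NDUFS3 and NDUFV2, with a median log2 fold change of 0.02 over all 9.

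The 37 genes lie on 18 chromosomes, 6 of them on chromosome 19. Of those 6, NDUFA3, NDUFA7 and NDUFS7 fell and NDUFA11, NDUFA13 and NDUFB7 did not pass, where 20.7% of all tested genes fell.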
